A study of Mus musculus with 15 samples.

Results

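Pf4, Ppbp, Vwf, Itga2b, Itgb3, Gp1bb, Gp5, Gp9 and Gp6, 9 genes of megakaryocytes and platelets, were followed in spleens of leukemic mice with an NRAS transgene on and after it was switched off. They were taken by name: each probe set whose only gene symbol in the platform annotation was 1 of the 9 counted as a member. This gave 11 probe sets of the 34945 with a single symbol. With 1 probe set per gene, the 9 genes stood among 18193 measured genes, and all 9 were measured.

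The arrays are Affymetrix Mouse Genome arrays of acute myeloid leukemia cells, 15 in all, and all groups share the genotype NRASG12V/Mll-AF9. In these leukemias a mutant NRAS transgene is combined with the Mll-AF9 fusion gene, and doxycycline turns the NRAS transgene off. SCID/Beige mice, which have few working lymphocytes but still make their own platelets and red cells, received the leukemia through the tail vein, and by 20 days the blood held over 100000 white cells per microlitre. The RAS-ON group (5 arrays, 0 h) came from mice given vehicle. The RAS-OFF groups (2 arrays each at 48, 60, 72, 84 and 96 h) came from mice given doxycycline by injection and in the drinking water. The promoter that drives the transgene is not given in the sources used here, nor is it said whether replicates are separate animals, so the p-values describe the spread among the arrays given, part of which may be technical. The RNA came from spleen cells, and the labels describe no sort that would remove platelets or host cells from them.

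Megakaryocytes are the large polyploid cells that shed platelets, and in mice they live in the spleen as well as in the bone marrow. Platelets have no nucleus but carry RNA from the megakaryocyte. They store chemokines and adhesion proteins in alpha granules, bind von Willebrand factor through the glycoprotein Ib-IX-V complex, bind collagen through glycoprotein VI, and cross-link through an integrin that binds fibrinogen. GATA and ETS family factors, among them GATA1 and FLI1, are known to act together on the promoters of many of these genes.

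Because these 2 families act on many of these promoters, the 250 bases before the gene start were searched for letters of their binding motifs. The letters were GATAA (or TTATC on the other strand) for GATA factors and GGAAG (or CTTCC) for ETS factors. Other forms of the motifs, such as GATAG, were not searched. The windows come from RefSeq on assembly GRCm38.p6, and 7 of the 9 members had one. For Gp6 and Gp9 the start used lies inside the gene's span in RefSeq, and for the others at its edge. The pair of alpha-granule chemokines, the integrin alpha chain and Gp5 are shown, as genes that rose here and whose windows differ in the letters they hold. Each reads in the direction of the gene, with matches to either motif in capitals. The windows lie at chr5:90772185-90772434 (Pf4, plus strand), chr5:90768268-90768517 (Ppbp, plus strand), chr11:102469884-102470133 (Itga2b, minus strand) and chr16:30310782-30311031 (Gp5, minus strand).
Pf4: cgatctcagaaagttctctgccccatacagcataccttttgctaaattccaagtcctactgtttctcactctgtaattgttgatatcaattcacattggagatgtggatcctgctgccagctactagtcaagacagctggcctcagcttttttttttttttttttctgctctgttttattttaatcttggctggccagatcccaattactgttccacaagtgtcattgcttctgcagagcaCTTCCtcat
Ppbp: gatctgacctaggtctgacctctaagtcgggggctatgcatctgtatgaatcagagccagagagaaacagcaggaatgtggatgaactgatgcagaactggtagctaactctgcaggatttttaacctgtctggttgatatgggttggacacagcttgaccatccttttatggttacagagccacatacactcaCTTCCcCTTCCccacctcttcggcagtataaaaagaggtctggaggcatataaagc
Itga2b: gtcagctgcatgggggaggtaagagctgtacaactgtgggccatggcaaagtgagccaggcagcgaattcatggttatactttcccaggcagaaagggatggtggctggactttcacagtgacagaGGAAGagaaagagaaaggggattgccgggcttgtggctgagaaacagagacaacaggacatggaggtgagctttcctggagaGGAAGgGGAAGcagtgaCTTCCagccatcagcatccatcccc
Gp5: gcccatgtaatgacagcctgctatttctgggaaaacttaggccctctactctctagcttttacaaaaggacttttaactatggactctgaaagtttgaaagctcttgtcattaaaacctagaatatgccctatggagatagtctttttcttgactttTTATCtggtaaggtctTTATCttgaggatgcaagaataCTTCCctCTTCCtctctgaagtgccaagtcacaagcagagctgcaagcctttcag

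The Pf4 window has CTTCC starting 9 bases before the gene start, and the Ppbp window has it at 56 and 50 bases. Itga2b holds GGAAG at 124, 42 and 36 bases and CTTCC at 25, and Gp5 holds TTATC at 93 and 77 bases followed by CTTCC at 55 and 48 bases. Over the 7 members with a window, 6 held GGAAG or CTTCC, as did 64.1% of the 32851 windows of 27025 genes in the table. GATAA or TTATC stood in 3 of 7 (Gp5, Gp6 and Gp9), against 22.6% of all windows. Both motifs stood in 2 of 7 (Gp5 and Gp9), against 13.2%. Of these, the Gp9 window (chr6:87777820-87778069) lies wholly inside the gene's span (87776131-87779786). The Gp6 window (chr7:4397745-4397994, minus strand) lies partly inside its span, which ends at 4397851. A match describes the letters and is no evidence that a factor binds there.

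All 9 genes were higher in RAS-OFF than in RAS-ON spleens by limma with Benjamini-Hochberg adjustment over 18193 genes. The changes ran from 0.32 (Gp6) to 0.68 (Itgb3) on the log2 scale, or 1.25-fold to 1.60-fold, with a median of 0.49, and the median over all genes was -0.04. At an adjusted p below 0.05, the level at which a gene is called here, 20.1% of all genes were called higher and 28.7% lower in this comparison. With the brightest probe set of each gene, all 10 RAS-OFF arrays lay above all 5 RAS-ON arrays in each of the 9 genes. This separation was shown by 9.36% of all genes. In the dimmer probe sets of Itgb3 and Gp1bb the groups overlapped. There the highest RAS-ON array read 7.58 (Itgb3) and 7.94 (Gp1bb), and the lowest RAS-OFF array 7.51 and 7.75. In this bulk tissue, more cells of a type and more RNA per cell cannot be told apart in a rise. The same holds for fewer cells and less RNA per cell in a fall.

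**Figure D1:**
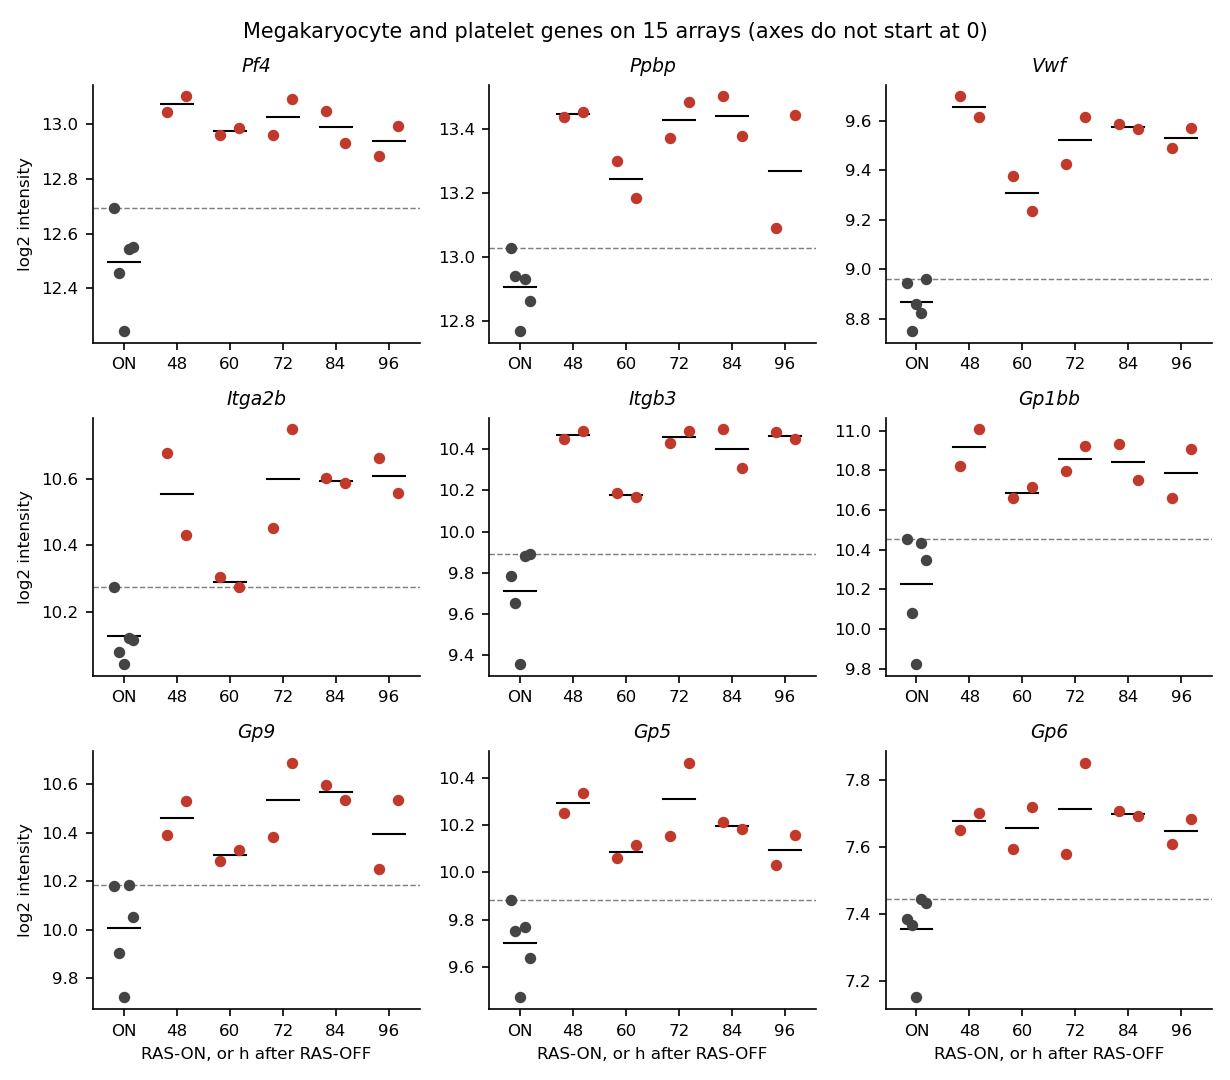
Log2 intensity of the 9 genes on each of the 15 arrays, RAS-ON at 0 h and RAS-OFF by hours of doxycycline, with 1 point per array, a bar at each group's mean and a dashed line at the highest RAS-ON array. In every panel the 10 RAS-OFF points lie above the 5 RAS-ON points, and RAS-ON replicate 3 is the lowest in 8 of 9 genes.

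Pf4 (probe set 1448995_at) encodes platelet factor 4, a chemokine released from alpha granules that binds heparin and is used as a megakaryocyte marker. In RAS-ON replicates 1 to 5 its log2 intensity was 12.69, 12.45, 12.24, 12.54 and 12.55. With doxycycline it was 13.04 and 13.10 at 48 h, 12.96 and 12.99 at 60 h, 12.96 and 13.09 at 72 h, 13.05 and 12.93 at 84 h, and 12.88 and 12.99 at 96 h. The RAS-OFF arrays sit close together, all between 12.88 and 13.10, while RAS-ON replicate 3 is low and replicate 1 comes nearest to the RAS-OFF arrays without reaching them. The mean went from 12.50 ± 0.17 (SD, n = 5) to 13.001 ± 0.07 (SD, n = 10), a rise of 0.50 ± 0.07 (SE), 1.42-fold (limma adjusted p = 1.57e-05).

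Ppbp (1418480_at) encodes pro-platelet basic protein, the precursor of the neutrophil-attracting chemokine that platelets also keep in alpha granules. RAS-ON replicates 1 to 5 read 13.03, 12.94, 12.77, 12.93 and 12.86 (log2 intensity). The RAS-OFF pairs read 13.44 and 13.45 at 48 h, 13.30 and 13.18 at 60 h, 13.37 and 13.48 at 72 h, 13.50 and 13.38 at 84 h, and 13.09 and 13.44 at 96 h. The first 96 h array is the lowest of the RAS-OFF arrays, just above the highest RAS-ON array. Its mean rose by 0.46 ± 0.06 (SE), from 12.90 ± 0.10 (SD, n = 5) to 13.36 ± 0.14 (SD, n = 10), or 1.37-fold (limma adjusted p = 2.82e-05).

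The change of Ppbp was smaller than that of Pf4 by 0.05 ± 0.05 (SE; exact two-sided permutation test over 3003 arrangements of the arrays, p = 0.405, and adjusted p = 0.405 over 4 pairs of partner genes). The pairs were chosen with earlier results of these data known. On that first 96 h array the 3-prime end of Gapdh read 1.22 log2 units above the 5-prime end, against 0.10 to 0.35 on the others, a measure of RNA breakdown or short amplification. Its part in the result was not tested. Over all alternative settings, its removal among them, the smallest change of mean RAS-OFF against RAS-ON in the 9 genes was 0.24 (Gp6). Without it, 96 h rests on a single array.

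Vwf (1435386_at) encodes von Willebrand factor, the multimeric protein that tethers platelets to an injured vessel wall; megakaryocytes and endothelial cells both make it. With vehicle its log2 intensity was 8.95, 8.75, 8.86, 8.83 and 8.96 on the 5 arrays in turn. With RAS off it read 9.70 and 9.62 at 48 h, 9.38 and 9.23 at 60 h, 9.43 and 9.62 at 72 h, 9.59 and 9.57 at 84 h, and 9.49 and 9.57 at 96 h. The 60 h arrays are the lowest of the RAS-OFF arrays, and RAS-ON replicate 2, not 3, is the lowest of all. It rose by 0.65 ± 0.05 (SE), from 8.87 ± 0.09 (SD, n = 5) to 9.52 ± 0.14 (SD, n = 10), or 1.57-fold (adjusted p = 1.43e-07, limma), the lowest adjusted p among the 9.

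Endothelial markers moved with Vwf in part. Of 14 other genes of vascular endothelium, 8 rose, 1 fell and 5 were not called (median 0.30), and their mean log2 level was 8.26 to 8.39 on the RAS-ON arrays and 8.44 to 8.88 on the RAS-OFF arrays. Stab2, a scavenger receptor of sinusoidal endothelium, rose by 1.18 ± 0.10 (SE), and Pecam1, an adhesion molecule of endothelium, platelets and leukocytes, fell by 0.87 ± 0.08. The part of endothelial RNA in the Vwf result was not tested.

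Itga2b and Itgb3 encode the alpha-IIb and beta chains of the platelet fibrinogen receptor; the alpha chain is the megakaryocyte marker CD41 and also appears on early blood progenitors. Itga2b was measured by 1417758_at. In RAS-ON replicates 1 to 5 its log2 intensity was 10.27, 10.08, 10.04, 10.12 and 10.11. With doxycycline it was 10.68 and 10.43 at 48 h, 10.30 and 10.28 at 60 h, 10.45 and 10.75 at 72 h, 10.60 and 10.59 at 84 h, and 10.66 and 10.56 at 96 h. Both 60 h arrays lie only just above RAS-ON replicate 1, so the groups meet to the second decimal at 10.27 and 10.28 without overlap, while both arrays of 72, 84 and 96 h stand clear of RAS-ON. The mean rose by 0.40 ± 0.06 (SE), from 10.13 ± 0.09 (SD, n = 5) to 10.53 ± 0.16 (SD, n = 10), or 1.32-fold (limma adjusted p = 7.66e-05).

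The beta chain Itgb3 (1455257_at) also pairs with the alpha-v chain in other cells, among them macrophages and endothelium. RAS-ON replicates 1 to 5 read 9.78, 9.66, 9.36, 9.88 and 9.89 (log2 intensity). The RAS-OFF pairs read 10.45 and 10.49 at 48 h, 10.19 and 10.17 at 60 h, 10.43 and 10.49 at 72 h, 10.50 and 10.31 at 84 h, and 10.48 and 10.45 at 96 h. RAS-ON replicate 3 is far below the other RAS-ON arrays, and the 60 h arrays are again the lowest of RAS-OFF. It rose by 0.68 ± 0.08 (SE), from 9.71 ± 0.22 (SD, n = 5) to 10.39 ± 0.13 (SD, n = 10), or 1.60-fold (limma adjusted p = 3.99e-06).

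A dimmer probe set of Itgb3, 1421511_at, went from 7.48 to 7.63, a change of 0.15 ± 0.06 (SE; limma adjusted p = 0.0415 over 45037 probe sets), so the size of the Itgb3 change depended on the probe set. Between the chains, the change of Itgb3 exceeded that of Itga2b by 0.28 ± 0.09 (SE; exact two-sided permutation p = 0.00599, and 0.0173 adjusted over the 4 pairs), with 7 of 10 RAS-OFF arrays above all RAS-ON arrays in the difference. With the mean of the Itgb3 probe sets, its change was 0.42, close to the 0.40 of Itga2b.

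Gp1bb, Gp9 and Gp5 encode glycoproteins of the receptor for von Willebrand factor; Gp1bb makes the chain that is disulfide-linked to glycoprotein Ib alpha. Its main probe set was 1422977_at. With vehicle its log2 intensity was 10.45, 10.08, 9.82, 10.44 and 10.35 on the 5 arrays in turn. With RAS off it read 10.82 and 11.01 at 48 h, 10.66 and 10.71 at 60 h, 10.79 and 10.92 at 72 h, 10.94 and 10.75 at 84 h, and 10.66 and 10.91 at 96 h. The RAS-ON arrays spread more than the RAS-OFF arrays, with replicates 2 and 3 low and the other three close to the lowest RAS-OFF arrays. The mean rose by 0.59 ± 0.10 (SE), from 10.23 ± 0.27 (SD, n = 5) to 10.82 ± 0.12 (SD, n = 10), or 1.51-fold (limma adjusted p = 0.000128).

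The other Gp1bb probe set, 1456427_at, went from 7.75 to 7.90, a change of 0.16 ± 0.06 (SE; limma adjusted p = 0.0598) that was not called. A probe set named for both Septin5 and Gp1bb, 1452357_at, lay outside the rule and went from 9.72 to 9.78 (change 0.06 ± 0.15, SE; limma adjusted p = 0.774). That mean hides a fall with time. Against RAS-ON its change was 0.62, 0.30, 0.13, -0.39 and -0.37 at 48, 60, 72, 84 and 96 h (SE 0.22 each). Over the RAS-OFF times it changed by -0.27 ± 0.06 (SE) per 12 h (limma adjusted p = 0.0127 over 45037 probe sets). Septin5 and Gp1bb overlap in the genome, and no probe set had Septin5 as its only name. With the mean of the single-symbol probe sets, Gp1bb was still called, at 0.37.

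Gp9 (1419720_at) encodes glycoprotein IX, which the complex needs to reach the cell surface. In RAS-ON replicates 1 to 5 its log2 intensity was 10.18, 9.90, 9.72, 10.19 and 10.05. With doxycycline it was 10.39 and 10.53 at 48 h, 10.28 and 10.33 at 60 h, 10.38 and 10.69 at 72 h, 10.60 and 10.53 at 84 h, and 10.25 and 10.54 at 96 h. RAS-ON replicates 1 and 4 come within a small step of the lowest RAS-OFF array, the first of 96 h. The mean rose by 0.44 ± 0.08 (SE), from 10.01 ± 0.20 (SD, n = 5) to 10.45 ± 0.14 (SD, n = 10), or 1.36-fold (limma adjusted p = 0.000436).

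Gp5 (1422817_at) encodes glycoprotein V, a subunit that thrombin cleaves and that is found on mature megakaryocytes and platelets. RAS-ON replicates 1 to 5 read 9.88, 9.75, 9.47, 9.77 and 9.64 (log2 intensity). The RAS-OFF pairs read 10.25 and 10.34 at 48 h, 10.06 and 10.11 at 60 h, 10.15 and 10.46 at 72 h, 10.21 and 10.18 at 84 h, and 10.03 and 10.16 at 96 h. The second 72 h array is the highest, and the groups do not overlap. The mean rose by 0.49 ± 0.07 (SE), from 9.70 ± 0.16 (SD, n = 5) to 10.20 ± 0.13 (SD, n = 10), or 1.41-fold (limma adjusted p = 3.37e-05).

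Within the complex, the change of Gp1bb exceeded that of Gp9 by 0.15 ± 0.04 (SE; exact two-sided permutation p = 0.00866, adjusted 0.0173 over 4 pairs), with 8 of 10 RAS-OFF arrays above all RAS-ON arrays in the difference. With the mean of its probe sets, Gp1bb changed by less than Gp9 (0.37 against 0.44). Gp5 and Gp9 differed by 0.05 ± 0.06 (SE; exact permutation p = 0.35, adjusted 0.405), in a test that does not show that they changed alike. Gp1ba, which encodes the chain that binds von Willebrand factor, had no probe set with a single gene name.

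Gp6 (1446554_at) encodes glycoprotein VI, the collagen receptor that signals through the Fc receptor gamma chain and is used as a marker of the platelet lineage. With vehicle its log2 intensity was 7.39, 7.37, 7.15, 7.45 and 7.43 on the 5 arrays in turn. With RAS off it read 7.65 and 7.70 at 48 h, 7.59 and 7.72 at 60 h, 7.58 and 7.85 at 72 h, 7.71 and 7.69 at 84 h, and 7.61 and 7.69 at 96 h. RAS-ON replicate 3 lies well under the other RAS-ON arrays, which are tight, and the second 72 h array is the highest. Its signal lay near the array median, at the 55.5 percentile of the mean levels of all probe sets other than controls. On RAS-ON replicate 3 it lay below that array's median. The rise was 0.32 ± 0.06 (SE), from 7.36 ± 0.12 (SD, n = 5) to 7.68 ± 0.08 (SD, n = 10), or 1.25-fold (limma adjusted p = 0.000495).

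The labels give no batch, but earlier results of these data set RAS-ON replicates 1 to 3 apart from replicates 4 and 5. All 9 genes were called higher against replicates 1 to 3 alone and against replicates 4 and 5 alone. Averaged over the 9 genes and centred on each gene's mean, the log2 level ran from -0.56 to -0.20 on the RAS-ON arrays. On the RAS-OFF arrays it ran from 0.03 to 0.32. RAS-ON replicates 4 (-0.26) and 5 (-0.29) lay between replicates 1 (-0.20) and 2 (-0.38). This mean thus does not set replicates 1 to 3 apart from replicates 4 and 5. RAS-ON replicate 3 was lowest in 8 genes, and all 9 were still called without it.

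The rise was present at the first time sampled. At 48 h all 9 genes were called higher (13.7% of all genes were), with folds from 1.25 to 1.73. At 60 h the count was 7 of 9 (11.5% of all genes) and folds were 1.12 to 1.39: Itga2b (0.16 ± 0.09, SE; limma adjusted p = 0.238) and Gp9 (0.30 ± 0.13; adjusted p = 0.102) were not called. All 9 were called at 72 h (13.4% of all genes; folds 1.28 to 1.68), at 84 h (15%; 1.27 to 1.63) and at 96 h (16.7%; 1.22 to 1.68). These comparisons share the 5 RAS-ON arrays and are not independent of each other. They use the brightest probe set of each gene. Tested on their own, the dimmer probe sets of Itgb3 and Gp1bb were not called at any time (limma adjusted p 0.0749 to 0.822 over 45037 probe sets).

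Single arrays carry weight at some times, since each time has 2. At 60 h, 2 genes (Pf4 and Vwf) were called without either of the 60 h arrays in turn. At 72 h, 5 genes (Pf4, Ppbp, Itgb3, Gp5 and Vwf) were called without the second 72 h array. At 96 h, 4 genes (Pf4, Itga2b, Itgb3 and Vwf) were called without the second 96 h array.

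Vwf had the largest change at 48 h, 0.79 ± 0.08 (SE), and was at 0.44 ± 0.08 at 60 h and 0.65, 0.71 and 0.66 at 72, 84 and 96 h (SE 0.08 each). Itgb3 ran 0.75, 0.46, 0.75, 0.69 and 0.75 over the same 5 times (SE 0.12 each). Both had their lowest RAS-OFF mean at 60 h, as did 7 of the 9 genes, while Pf4 and Gp6 had theirs at 96 h. Differences between single RAS-OFF times were not tested.

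Pf4 ran 0.58, 0.48, 0.53, 0.49 and 0.44 (SE 0.10 each), and Ppbp 0.54, 0.34, 0.52, 0.53 and 0.36 (SE 0.10 each). Gp1bb ran 0.69, 0.46, 0.63, 0.62 and 0.56 (SE 0.15 each), Gp5 0.59, 0.38, 0.60, 0.49 and 0.39 (SE 0.11 each), and Gp9 0.45, 0.30, 0.53, 0.56 and 0.38 (SE 0.13 each). Itga2b (0.43, 0.16, 0.47, 0.47 and 0.48; SE 0.09 each) and Gp6 (0.32, 0.30, 0.36, 0.34 and 0.29; SE 0.09 each) complete the set. In the order of the group means RAS-ON came lowest for all 9 genes and apart from its nearest neighbour. Among the RAS-OFF times the arrays of most neighbours overlapped: 4 of 4 neighbouring pairs of times in Pf4, Ppbp, Gp1bb, Gp6 and Gp9, 3 of 4 in Itga2b and Itgb3, and 2 of 4 in Gp5 and Vwf. No share over all genes was computed for these orders and overlaps. The counts thus describe the 9 genes and set them apart from no others.

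**Figure D2:**
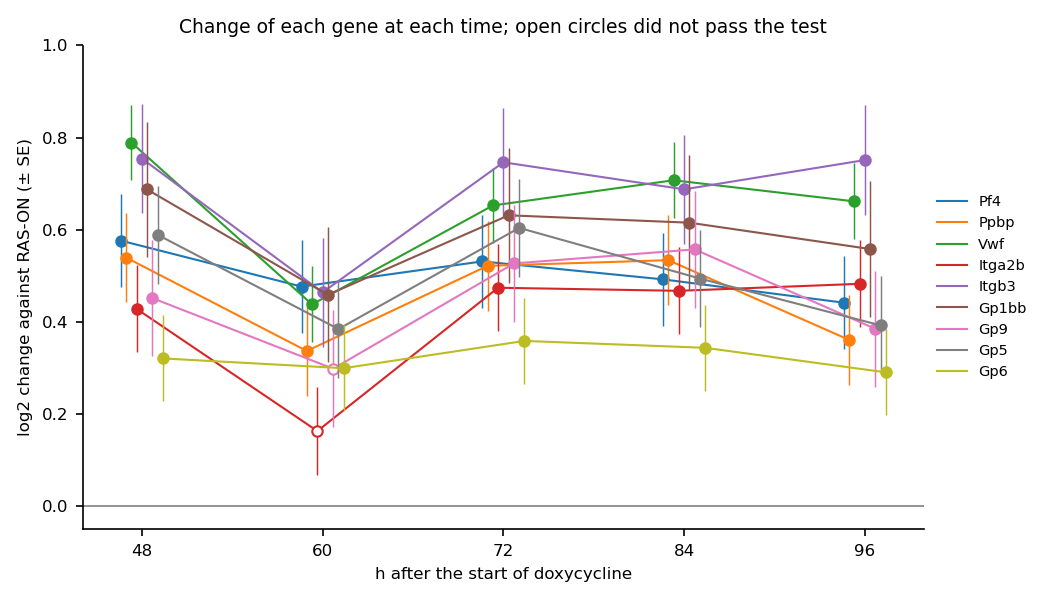
Log2 change of each of the 9 genes against RAS-ON at 48, 60, 72, 84 and 96 h, with standard errors from limma and open circles where the change was not called. Lines lie above 0 at all 5 times, 7 of 9 are lowest at 60 h, and Vwf at 48 h is the largest change at 0.79.

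Within RAS-OFF none of the 9 genes was called rising or falling with time in the least-squares slope over the 5 group means (limma with Benjamini-Hochberg adjustment). Over all genes 5.00% rose and 8.75% fell. Slopes ran from -0.03 (Gp5) to 0.04 (Itga2b) per 12 h, adjusted p values from 0.325 to 0.978, and 0 genes had an unadjusted p below 0.05. The 95% intervals of the 9 slopes, each taken for its gene alone, reached down to -0.094 and up to 0.095 per 12 h. They bound a steady drift of a gene, and not a change at single times.

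**Figure D3:**
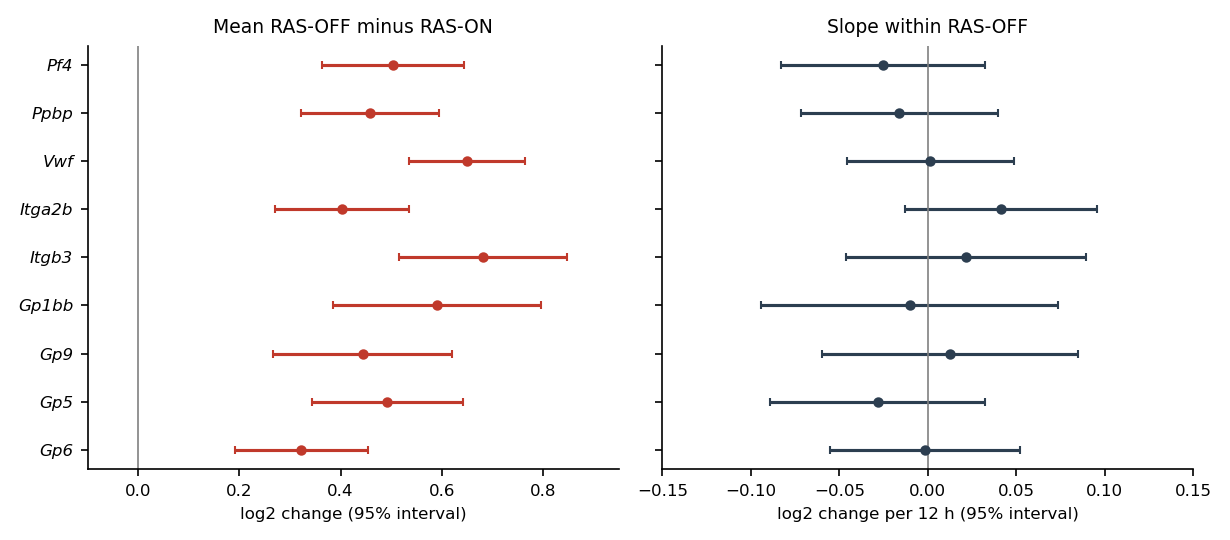
For each of the 9 genes, the left panel plots the log2 change of mean RAS-OFF minus RAS-ON and the right panel the log2 change per 12 h within RAS-OFF, with 95% intervals from limma. All 9 intervals on the left lie above 0, with changes from 0.32 (Gp6) to 0.68 (Itgb3), and all 9 on the right include 0.

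Across the 10 RAS-OFF arrays the 9 genes varied together. All 36 pairs had a positive Pearson r, with a median of 0.65, from 0.16 (Pf4 and Itga2b) to 0.86 (Pf4 and Gp5). The arrays share RNA quality, normalization and sample makeup, so these values describe the arrays and carry no test. Pairs of other genes were not compared, so the values do not show a trait particular to the 9.

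Among 16320 other genes with a settled symbol, the 5 whose log2 values followed the mean of the 9 most closely over all 15 arrays were Csgalnact1 (Pearson r 0.97), Larp1b (0.97), Tm4sf1 (0.95), Igfbp3 (0.95) and Tsc22d1 (0.95). Over the 10 RAS-OFF arrays alone r was lower, at 0.77, 0.63, 0.63, 0.46 and 0.44. All 5 genes were also called higher in RAS-OFF, and a step that genes share between the groups raises r over all 15 arrays. Csgalnact1, a chondroitin sulfate synthesis enzyme, rose by 0.88 ± 0.07 (SE), and Igfbp3, which binds insulin-like growth factors, by 1.32 ± 0.13.

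Other genes of megakaryocytes and platelets split both ways. Of 93 further genes listed by role, 87 were measured, and 30 (34.5%) rose, 23 (26.4%) fell and 34 were not called, with a median of 0.05. For all genes the shares were 20.1% and 28.7%. The lists were chosen with earlier results of these data known, and no difference between the 9 and these genes was tested.

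Of 16 megakaryocyte transcription factors 8 rose, 4 fell and 4 were not called (median 0.22). Gata1, a master regulator of both the megakaryocyte and the red cell lineage, rose by 1.61 ± 0.05 (SE), from 10.14 ± 0.12 (SD, n = 5) to 11.76 ± 0.18 (SD, n = 10), more on the log2 scale than any of the 9. Tal1, a helix-loop-helix partner of GATA1, rose by 1.30 ± 0.11 (SE), its cofactor Zfpm1, also called FOG1, by 1.29 ± 0.19, and Nfe2, needed for platelet release, by 0.86 ± 0.07. These 4 factors also work in red cell precursors. Fli1, the ETS factor of megakaryocytes and of many other blood cells, fell by 0.50 ± 0.08, and Etv6 fell by 0.86 ± 0.08.

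Receptors and surface proteins mostly did not pass: 3 rose, 2 fell and 11 of 16 were not called (median 0.06). The tetraspanins Cd151 and Cd9 rose by 0.37 ± 0.07 (SE) and 0.26 ± 0.07, and the ADP receptor P2ry1 by 0.24 ± 0.09 (limma adjusted p = 0.0333). Selp, which encodes the granule adhesion protein P-selectin, fell by 0.66 ± 0.12, with all 10 RAS-OFF arrays below all RAS-ON arrays, and the other ADP receptor, P2ry12, fell by 0.35 ± 0.10.

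Of 13 other alpha-granule and secreted proteins 5 rose, 3 fell and 5 were not called (median 0.15). The smallest of the 3 falls was in a dim gene, whose mean log2 level was 5.23 on RAS-ON and 4.95 on RAS-OFF arrays. Thbs1 (thrombospondin) rose by 0.64 ± 0.12 (SE), Clu (clusterin) by 0.60 ± 0.05 and Angpt1 (angiopoietin) by 0.57 ± 0.10. F13a1, a clotting factor chain made by platelets and by monocytes, fell by 2.21 ± 0.08, and Srgn, the granule proteoglycan of platelets and of most myeloid cells, by 0.51 ± 0.05. Of the dense-granule genes, 1 of 10 was higher (Rab38, 0.26 ± 0.06), 5 were lower and 4 not called (median -0.16). Among the lower were Hps1, an organelle assembly factor, by -0.54 ± 0.06, and Slc35d3 by -0.39 ± 0.12 (limma adjusted p = 0.0175).

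Of 9 genes of the cytoskeleton and of proplatelets 3 rose, 2 fell and 4 were not called (median -0.07). Tubb1, the tubulin of the platelet's marginal band, rose by 0.44 ± 0.08 (SE) and Mylk, a myosin kinase, by 0.54 ± 0.05, while Flna, the filamin that anchors glycoprotein Ib, fell by 0.52 ± 0.06 and Rab27a by 0.41 ± 0.08. Actn1 rose by 0.41 ± 0.05, but the mean of its probe sets turned the direction (-0.13; limma adjusted p = 0.348). Of 15 signalling and eicosanoid genes 5 rose, 4 fell and 6 were not called (median 0.05), with the nitric oxide receptor chains Gucy1a1 (0.75 ± 0.10, SE) and Gucy1b1 (0.27 ± 0.06) and the lipoxygenase Alox12 (0.29 ± 0.09) higher, and Plcg2 (-0.51 ± 0.05) and the calcium channel Orai1 (-0.41 ± 0.06) lower.

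Of 8 genes tied to endomitosis, the cell cycle without division that makes megakaryocytes polyploid, 5 rose and 3 fell (median 0.30). Ccne2 and Ccne1, the cyclins E, rose by 1.03 ± 0.08 (SE) and 0.67 ± 0.06, and Ect2, which drives division of the cell body, by 0.37 ± 0.08. Cdkn1a, a cyclin kinase inhibitor, fell by 0.87 ± 0.13 and Arhgef2 by 0.38 ± 0.09. All of these genes also act in other dividing cells.

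Some of these calls depended on a setting. The P2ry1 call was lost in 16 of 31 alternatives, including those that left out RAS-ON replicate 3 or 4 or the first array of 48, 60, 72 or 84 h or the second of 96 h (limma adjusted p 0.0532 to 0.103 in those). Slc35d3 lost its call in 5 of 31, including those that left out RAS-ON replicate 1 (0.0642) or 4 (0.0533). Cd9 (adjusted p = 0.304), Cd151 (0.0837), Rab38 (0.114) and Arhgef2 (0.114) were not called against RAS-ON replicates 4 and 5 alone. Alox12 lost its call in 4 of 32 alternatives, P2ry12 in 3 of 31 and Gucy1b1 in 2 of 32. With the mean of its probe sets the change of Mylk was 0.28, of Gucy1a1 0.34, of Angpt1 0.29, of Orai1 -0.25, of Fli1 -0.80, of Selp -1.16, of Cd151 0.16 and of Rab38 0.62, all still called. Against RAS-ON replicates 4 and 5 alone Cdkn1a changed by -0.58.

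**Figure D4:**
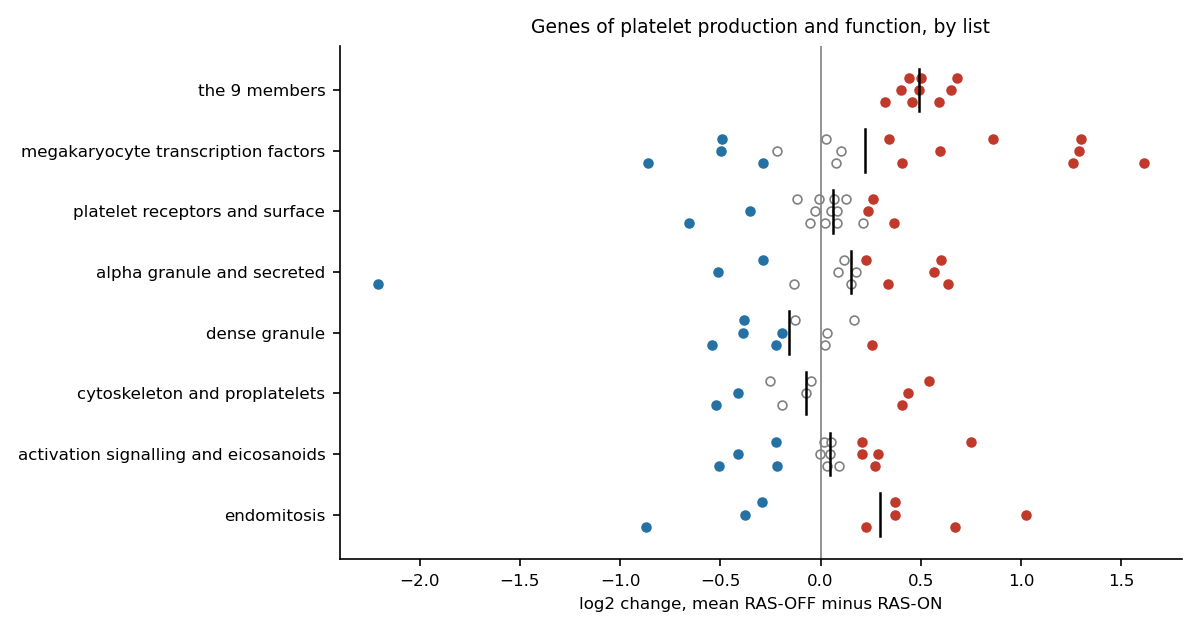
Log2 change, mean RAS-OFF minus RAS-ON, of the 9 genes and of the 87 other measured genes of megakaryocytes and platelets by role, with 1 point per gene (red called higher, blue called lower, open not called) and the median of each list as a bar. The 9 genes all lie above 0, while each other list holds genes on both sides.

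Markers of other cell types that a leukemic spleen holds moved over the same arrays. All 14 measured erythroid genes rose (median 1.52), and their mean log2 level was 10.86 to 11.20 on RAS-ON and 12.35 to 12.81 on RAS-OFF arrays. Epb42 (2.43 ± 0.11, SE) and Car1 (2.39 ± 0.10) rose most. Of 12 red pulp macrophage genes 8 rose, 2 fell and 2 were not called (median 0.66), with a mean log2 level of 9.93 to 10.27 on RAS-ON and 10.36 to 10.80 on RAS-OFF arrays, led by Timd4 (1.21 ± 0.07) and Slc40a1 (1.03 ± 0.06).

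Of the markers of immature myeloid cells, azurophil granule genes among them, all 6 measured fell (median -2.04). Their mean log2 level was 12.61 to 13.07 on RAS-ON and 10.49 to 11.12 on RAS-OFF arrays, and Ctsg fell by 2.66 ± 0.10 (SE) and Cst7 by 2.30 ± 0.09. Of 8 neutrophil genes 5 rose and 3 were not called (median 0.42; mean level 12.46 to 12.80 on RAS-ON, 13.03 to 13.61 on RAS-OFF arrays), with Mmp8 at 2.16 ± 0.08 and Cxcr2 at 1.81 ± 0.10. Mast cells and basophils share some genes with megakaryocytes, and of 7 of their genes 2 rose, 1 fell and 4 were not called (median -0.07; mean level 7.19 to 7.58 on RAS-ON, 7.06 to 7.37 on RAS-OFF arrays), with Hdc at 0.60 ± 0.08 and Mcpt8 at -2.21 ± 0.25. The share of each cell type in the spleens was not measured here, and the part of these shifts in the rise of the 9 genes was not tested.

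**Figure D5:**
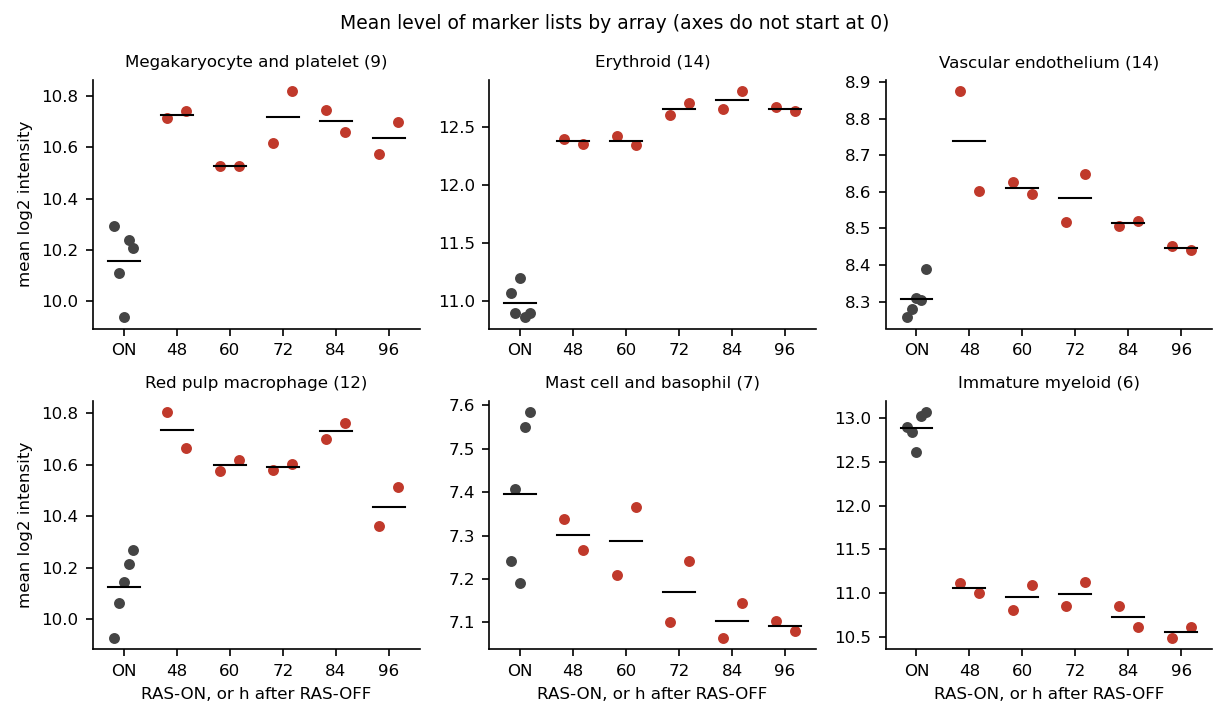
Mean log2 intensity of the 9 megakaryocyte and platelet genes and of 5 marker lists of other cell types on each of the 15 arrays, RAS-ON at 0 h and RAS-OFF by hours of doxycycline, with 1 point per array and a bar at each group's mean. The 9 genes and the erythroid, endothelial and red pulp macrophage lists are higher on every RAS-OFF array than on any RAS-ON array, the immature myeloid list is lower, and the mast cell and basophil list overlaps.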

How the data were processed

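RNA was isolated with Qiagen RNeasy, then amplified with MessageAmp III and biotinylated, per the labels' protocols. The deposited values are linear intensities per probe set, which the authors computed by RMA according to the submitters' processing notes; no version or settings are given in the sources used here. RMA makes array distributions alike, so a shift of most genes one way would not be seen. Array medians were 149.99 to 156.53 and r within groups 0.987 to 0.997. Their number limits the precision.

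Each of 18193 genes was represented by its single-symbol probe set with the highest mean, with no filter, and log2 intensities were fitted by limma 3.58.1 (R 4.3.3; 6 group means, default eBayes, two-sided, Benjamini-Hochberg over all genes; called at adjusted p below 0.05). RAS-OFF, as the mean of its 5 groups, and each time alone were set against RAS-ON, and a slope per 12 h was fitted to the RAS-OFF group means. Permutation tests used SciPy 1.17.1. The code was tested on simulated data.

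The members and lists were chosen with earlier results of these data known. All members are named, and from each list of other genes Gata1, Nfe2, Fli1 and Gp1ba whatever their values, with up to 3 called higher and 2 called lower of largest change; marker lists give 2 called genes, and neighbours are named where called. Alternatives covered scale, centring, probe sets, dim genes, eBayes, weights, groups, a replicate block and left-out arrays and times. One gene that the rule names is not reported here.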

Additional observations from a re-analysis of the deposited data

Results flagged for a closer look

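RAS-ON replicate 3 lay apart from the other RAS-ON arrays for Gp6, at 7.15 against 7.37 to 7.45 (log2 intensity). Its gap to the nearest array was 0.74 of the group's range, above Dixon's 95% critical value of 0.71 for 5 samples. This was 1 of 11 probe sets checked, and chance sets about 1 in 20 groups apart in this way. Without that array Gp6 was still called higher in RAS-OFF.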

How the results depend on the processing

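For RAS-OFF against RAS-ON, all 9 genes were called higher and 0 lower in each of 32 alternatives, and for the slope 0 were called rising and 0 falling in each of 26. With single arrays left out, the count called higher was 6 to 9 at 48 h, 2 to 7 at 60 h, 5 to 9 at 72 h, 7 to 9 at 84 h and 4 to 9 at 96 h; where 1 array of a time remained, its spread was taken from the other groups. Same-numbered arrays deviated together (r above 0.1) in 5 of 30 pairs, with r from -0.24 to 0.22. These values show no clear pairing by number. They cannot exclude one, since each RAS-OFF time has only 2 arrays, whose deviations from their mean mirror each other. With the replicate number as a block, 9 genes were called for RAS-OFF against RAS-ON and at 48, 72 and 84 h, 5 at 60 h and 6 at 96 h. With that block the change of Selp was -0.31 in place of -0.66, and of Tubb1 0.27 in place of 0.44, both still called. Over the other genes of the pathway, 25 to 31 were called higher and 16 to 24 lower in 32 alternatives. Actn1 turned to -0.13 with the mean of its probe sets. The cause was not tested. The alternatives for the pathway genes were chosen after seeing the data.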

Other observations

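While none of the 9 genes was called for a slope, some other genes of megakaryocytes and platelets were. Of the 87 measured, 5 were called rising and 22 falling from 48 to 96 h (limma with Benjamini-Hochberg adjustment), beside 5.00% rising and 8.75% falling over all genes, so the share rising was near that of all genes. Gata1 rose by 0.12 ± 0.02 (SE) per 12 h and the cyclin gene Ccne2 by 0.16 ± 0.03, while Fli1 fell by 0.15 ± 0.03, Cd9 by 0.16 ± 0.03, Flna by 0.18 ± 0.03, Orai1 by 0.22 ± 0.03 and Rab27a by 0.24 ± 0.03. Without the first 48 h array the counts were 2 rising and 10 falling, and without the first 96 h array 14 were falling. Without the first arrays of 48, 84 and 96 h together they were 0 and 5. Whether the slopes of these genes differ from those of the 9 was not tested.

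The nearest gene on either side of each of the 9 was looked up in the RefSeq table of GRCm38.p6. Pf4 and Ppbp are neighbours of each other, and of the 16 other neighbours 8 were measured, of which 3 were higher and 1 lower; over all genes 20.1% were higher and 28.7% lower. These counts are too small to be read as a result about neighbours. Cxcl5, a neutrophil-attracting chemokine next to Ppbp, rose by 1.08 ± 0.13 (SE; limma adjusted p = 8.16e-06). Ncr1, a natural killer cell receptor next to Gp6, rose by 0.69 ± 0.14 (adjusted p = 0.000712, limma), and Rab43, next to Gp9, by 0.44 ± 0.05. Gpatch8, next to Itga2b, fell by 0.17 ± 0.06 (limma adjusted p = 0.0407), and 4 were not called.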
